A study of Mus musculus with 2 samples.

Results

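Cap-Arterial endothelial cells of the postnatal day 6 (P6) mouse retina are the cells that the study placed between its Capillary and its Arterial cluster. Their members here were the P6 barcodes that the study's deposited cluster list names Cap-Arterial, 162 of the 1560 labelled P6 cells (10.4%, exact Clopper-Pearson 95% interval 8.91 to 12.01%). Endothelial cells of wild-type C57BL/6 retinas, sorted by FACS for CD31 and against CD45, were sequenced in 1 droplet library of P6 and 1 library of P15. The study states equal numbers of male and female mice for its experiments, not per library. How many pups were pooled per library is not stated in the sources used here. No gene was deleted and no agent given. The P6 library held 1984 barcodes and 13958124 unique molecular identifiers (UMIs), of which 424 barcodes had no label. A UMI marks 1 captured mRNA molecule, and a level is given here in CPM, the share of all UMIs of a group of cells that belong to a gene, in parts-per-million.

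The clusters were formed from the expression of these same cells, and the study named its arterial clusters from a short list that holds Gja4, Gja5, Hey1, Sox17, Bmx, Jag1 and Efnb2. All differences between Cap-Arterial and other cells are therefore descriptions. Each age is a single library without replicates, so no p-value is given. A gene is counted as higher or lower at a ratio of CPM of at least 2-fold or at most 0.5 among the 8019 genes with at least 100 UMIs over the labelled P6 cells. Intervals of levels (exact Poisson) and ratios (conditional binomial) are at 95% and cover counting error only, and a level of 0 is bounded with 3 counts, or 3.59 CPM in Cap-Arterial cells.

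In a growing retina, arteries, capillaries and veins form from 1 endothelial sheet. Arterial endothelium is known for Notch signalling, in which ligands such as Dll4 and Jag1 on a cell activate receptors on its neighbour and induce Hey1, for the connexins that couple cells, and for the chemokine Cxcl12. Retinal capillaries form a blood-retina barrier, whose endothelium carries lipid, amino acid and glucose transporters such as Mfsd2a, Slc7a5 and Slc2a1. Large arteries additionally lay down elastic matrix, with elastin and the fibulins.

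Cap-Arterial cells held genes of both programmes. Gja4, Slc6a6 and Glul stood at the level of Arterial cells within counting error, 11 of 18 barrier carriers were at least 2-fold higher than in Arterial cells, as were 9.68% of all tested genes, and 6 of 9 elastic matrix genes were at least 2-fold lower, as were 8.24% of all tested genes. Genes of DNA synthesis and mitosis had few UMIs.

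Promoter sequence is shown for Cxcl12 and Gja4, the markers with the largest ratios, and for Mfsd2a, a barrier gene with a lower level in Arterial than in Cap-Arterial cells. Sequences are from RefSeq on GRCm38.p6, where 2 of the 4 markers matched (the others are Hey1 and Sox17). Each line gives the 250 bases before the start of the gene, 5' to 3' on the strand of the gene. Capitals mark the letters TGGGAA, the core bound by the Notch effector RBPJ, ACAAT, a core of SOX factors, and CACCC, a core of KLF factors, searched on both strands.
Cxcl12, chr6:117168285-117168534, plus strand: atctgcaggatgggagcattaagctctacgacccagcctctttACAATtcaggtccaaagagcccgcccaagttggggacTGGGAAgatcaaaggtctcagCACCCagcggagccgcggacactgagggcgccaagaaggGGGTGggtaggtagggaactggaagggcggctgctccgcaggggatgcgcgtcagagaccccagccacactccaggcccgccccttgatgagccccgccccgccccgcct
Gja4, chr4:127314040-127314289, minus strand: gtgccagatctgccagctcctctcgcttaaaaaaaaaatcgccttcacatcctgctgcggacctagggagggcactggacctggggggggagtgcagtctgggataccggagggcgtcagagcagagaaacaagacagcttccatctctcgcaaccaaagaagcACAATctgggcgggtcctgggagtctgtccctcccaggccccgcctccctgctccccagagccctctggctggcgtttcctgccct
Mfsd2a, chr4:122961189-122961438, minus strand: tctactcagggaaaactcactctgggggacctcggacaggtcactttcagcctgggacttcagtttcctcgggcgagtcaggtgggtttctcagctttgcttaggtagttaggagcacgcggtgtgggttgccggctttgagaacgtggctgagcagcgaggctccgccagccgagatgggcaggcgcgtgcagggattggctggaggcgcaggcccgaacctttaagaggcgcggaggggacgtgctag
The Cxcl12 window held TGGGAA at 170, ACAAT at 207 and CACCC at 149 and, on the opposite strand, 110 bases before the start. The Gja4 window held ACAAT at 86 bases, and the Mfsd2a window held none of the 3. Among 32851 promoters of the same length, 21.6% held TGGGAA, 27.7% ACAAT and 52% CACCC, and the searched letters do not overlap each other. These are matches of letters, which say nothing about binding in these cells.

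The Cap-Arterial cells held 835924 UMIs, with a median of 4472 per cell (1580 to 14602) and 2087 genes. The median of the other 1398 labelled P6 cells was 5456 UMIs and 2274 genes. Mitochondrial genes took a median of 1.12% of UMIs in Cap-Arterial and 1.24% in the other cells, and ribosomal protein genes 16.8% and 19.8%. Capillary cells, a main comparison below, had medians of 3204 UMIs, 1686 genes and 2.51% mitochondrial UMIs. All 162 cells had UMIs of the 10 general endothelial genes, whose sum was 11990 CPM against 9794 CPM in the others. Of 8 pericyte markers, 6 were at 0 (Pdgfrb, Kcnj8, Cspg4, Vtn, Higd1b and Cd63) and all 8 together reached 10.8 CPM against 9.31 CPM, although Cd63 was also an exclusion criterion of the study. Smooth muscle markers summed to 10.8 against 16.7 CPM, with Acta2, Tagln and Des at 0, and the 8 leukocyte markers analysed, which do not include Ptprc, to 2.39 against 3.07 CPM. Of the astrocyte and Mueller glia list, Gfap and Slc1a3 were at 0 and Glul made up 1330 of 1340 UMIs, so that the list without Glul stood at 11.96 CPM against 9.77 CPM. Neuronal markers reached 26.3 against 20.0 CPM and blood markers 27.5 against 21.8 CPM, small levels whose part in the results was not tested. Of the Cap-Arterial cells, 26 had Xist and no Y-linked UMI, 34 a Y-linked UMI and no Xist, and 0 had both, whereas 12 of the other labelled cells had both. The libraries shared 7 barcodes, of which 0 were labelled in both.

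The 4 marker genes described here were Cxcl12, which recruits cells through Cxcr4, Gja4, the connexin 37 gene, Hey1, a Notch target, and Sox17, an arterial transcription factor. The study itself named the cluster with Gja4, Hey1 and Sox17, so their levels describe the label and do not check it. Cxcl12 (GRCm38 6:117168535-117181367) ranged over the Cap-Arterial cells from 0 through a median of 2.85 to 86.5 UMIs per 10000, with a UMI in 106 cells. Gja4 (4:127311421-127314039) ranged from 0 through 15.2 to 119 per 10000, with a UMI in 139 cells. The highest cells stood far above the median for both genes, and some cells had no UMI of either. Hey1 (3:8663359-8667256) ranged from 0 through a median of 0 to 18.6 per 10000, with a UMI in 75 cells. Sox17 (1:4490931-4497354) ranged from 0 through 4.98 to 37.1 per 10000, with a UMI in 128 cells. No marker separated every Cap-Arterial cell from the other clusters, since cells without a UMI occurred for each.

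Summed over the cluster, Cxcl12 was 592 CPM (541 to 647) in Cap-Arterial, 6.39 in Cap-Venous, 13.4 in Capillary and 1230 CPM in Arterial cells. Gja4 was 1859 CPM (1768 to 1954) against 60.1, 161 and 1913 CPM in the same clusters. Hey1 was 185 CPM (157 to 217) against 13.9, 19.1 and 339 CPM, and Sox17 was 714 CPM (658 to 774) against 203, 197 and 1407 CPM. All 4 genes were highest in Arterial and next highest in Cap-Arterial cells among the 9 clusters. Gja4 differed from the others in that its Cap-Arterial level was within counting error of the Arterial level (ratio 0.972, 0.868 to 1.09), while Cxcl12 had a ratio of 0.481, Hey1 of 0.547 and Sox17 of 0.508.

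**Figure D1:**
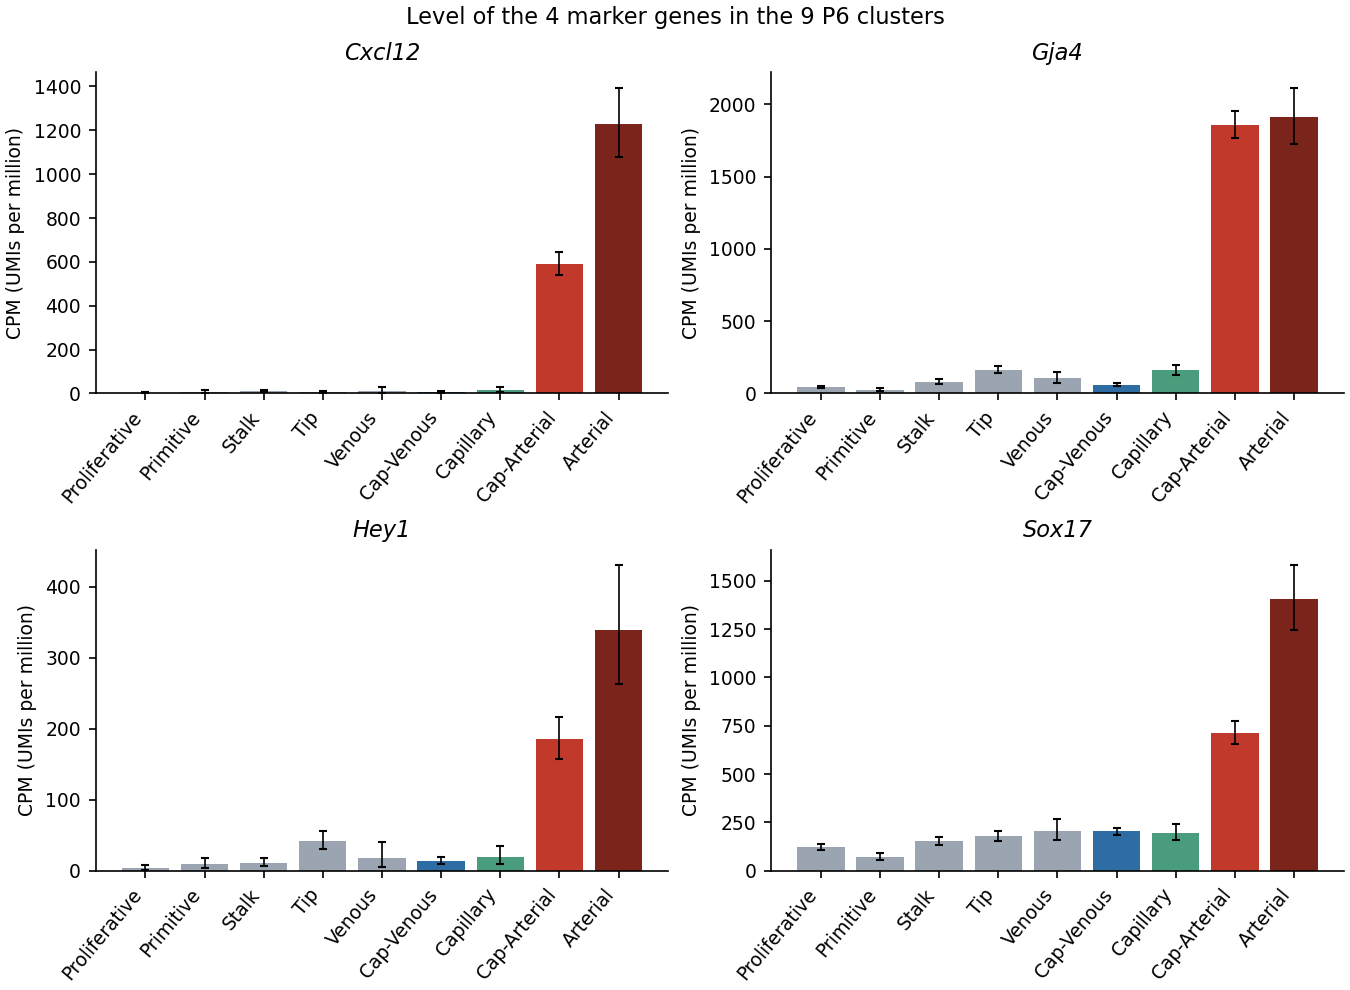
Bars give the levels of Cxcl12, Gja4, Hey1 and Sox17 in CPM, each panel on its own linear axis from 0, in the 9 labelled P6 clusters, and error bars give exact Poisson 95% intervals. Each gene is highest in Arterial and next highest in Cap-Arterial cells, and for Gja4 these levels are 1913 and 1859 CPM.

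At least 3 of the 4 markers had a UMI in 115 of the 162 Cap-Arterial cells (71.0%, 63.4 to 77.8%), in 35 of 40 Arterial cells (87.5%) and in 78 of the 1398 labelled cells outside Cap-Arterial (5.58%), of which those 35 are part. In Cap-Arterial cells 43 held all 4 markers, 72 held 3, 23 held 2, 14 held 1 and 10 held 0. Depth also varied with this count, with medians of 4175 UMIs in the cells with 0 markers, 3365 with 1, 3954 with 2, 4809 with 3 and 5070 with 4. To compare shares at equal depth, each cell was thinned to 3000 UMIs, which left out 29 Cap-Arterial and 139 other labelled cells. Of the 139 cells 58 were Capillary, so 91 of the 149 Capillary cells remained. In these thinned cells Gja4 had a UMI in 109 of 133 Cap-Arterial cells (82.0%, unthinned 85.8%), 31 of 32 Arterial cells (96.9%), and in the other 7 clusters from 3.87% of Primitive to 20.9% of Capillary cells, whose unthinned median depths were 5148 and 3204 UMIs. Cxcl12 was found in 59.4% of thinned Cap-Arterial, 62.5% of Arterial cells and in the other 7 clusters from 0.645% of Primitive to 2.70% of Venous cells.

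**Figure D2:**
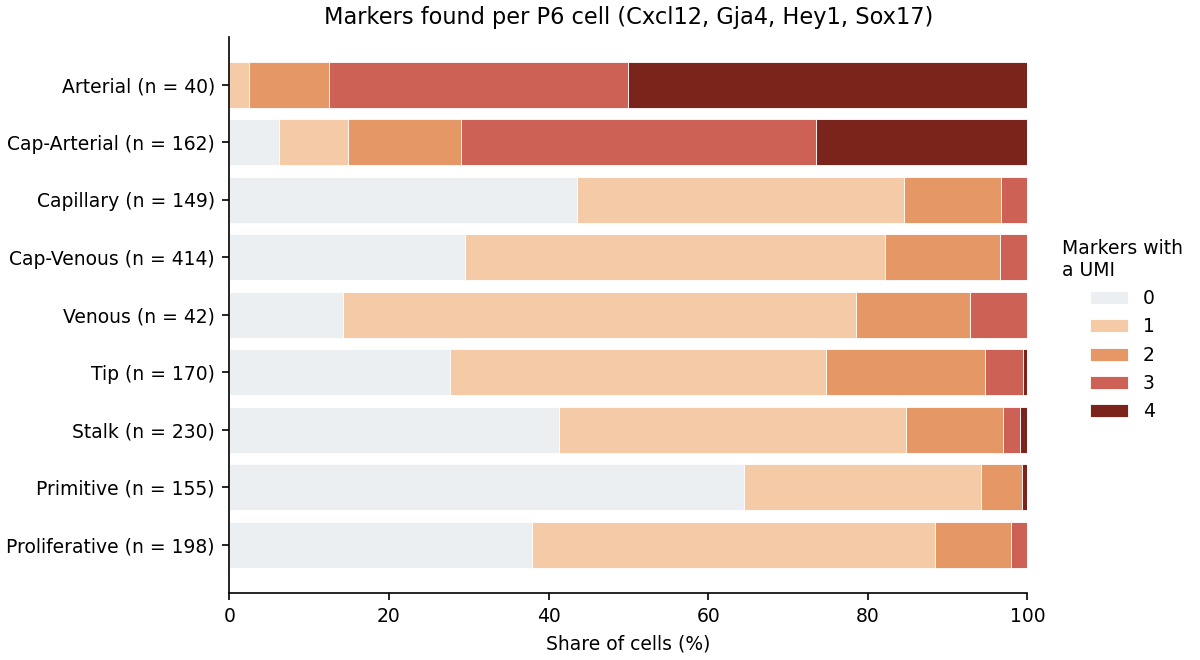
Share of the cells of each of the 9 labelled P6 clusters, in percent, by how many of the markers Cxcl12, Gja4, Hey1 and Sox17 had a UMI in the cell, coloured from 0 to 4 markers, with n the number of cells. In Cap-Arterial 115 of 162 cells hold 3 or 4 markers and in Arterial 35 of 40, and in no other cluster is that share above 7.14%.

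Against all other labelled P6 cells, 336 genes were at least 2-fold higher in Cap-Arterial cells (4.19% of the 8019 tested) and 453 were at least 2-fold lower (5.65%), and the median ratio of all tested genes was 1.04. These shares are the background for every count of list genes against all other labelled P6 cells below. The intervals of all 336 higher genes excluded 1, but a 2-fold higher ratio at the minimum UMI count already gives such an interval. That result is therefore set by the thresholds and is no further check of these genes. For lower genes the thresholds do not force it, and the intervals of 412 of the 453 excluded 1. The higher and lower genes cannot be compared by these counts. With edgeR TMM factors every ratio was multiplied by 0.879, a shift of -0.186 on the log2 scale, which gave 207 higher and 628 lower genes. Genes at a ratio just above 1 then came out just below it.

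The 15 genes with the highest ratios were, after Cxcl12 and Gja4, Nebl, Tmem100, Depp1, Cd24a, H2-Aa, Cdkn1c, Aqp1, Slc6a6, Stmn2, Hey1, Ptn, Ceacam1 and H2-Ab1. Nebl, which encodes the actin-binding protein nebulette, was 156 CPM against 10.8 CPM (ratio 14.4, 10.98 to 19.0). Tmem100, an endothelial target of BMP9 and ALK1 signalling, was 86.1 against 7.04 CPM (12.2, 8.59 to 17.5). Depp1, a FOXO target, was 150 against 13.0 CPM (11.5, 8.89 to 15.02). All of these were higher still in Arterial cells, at 390, 273 and 228 CPM. Slc6a6, the taurine transporter, was 817 against 88.9 CPM (9.19, 8.28 to 10.2), and its Arterial level of 891 CPM was within counting error of the Cap-Arterial level (ratio 0.917, 0.776 to 1.09). Stmn2, a regulator of microtubules best known from neurons, was 234 CPM (ratio 8.50, 7.003 to 10.3) and 1179 CPM in Arterial cells, but it had a UMI in only 38 of the 162 Cap-Arterial cells. Aqp1, a water channel, was likewise concentrated, with 144 UMIs in 24 cells. Of the 15 genes, H2-Aa and H2-Ab1, genes of MHC class II, were the only ones with a level in Arterial cells below that in Cap-Arterial cells, by less than counting error, and 51 of 51 and 78 of 83 of their UMIs lay in 25 cells.

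**Figure D3:**
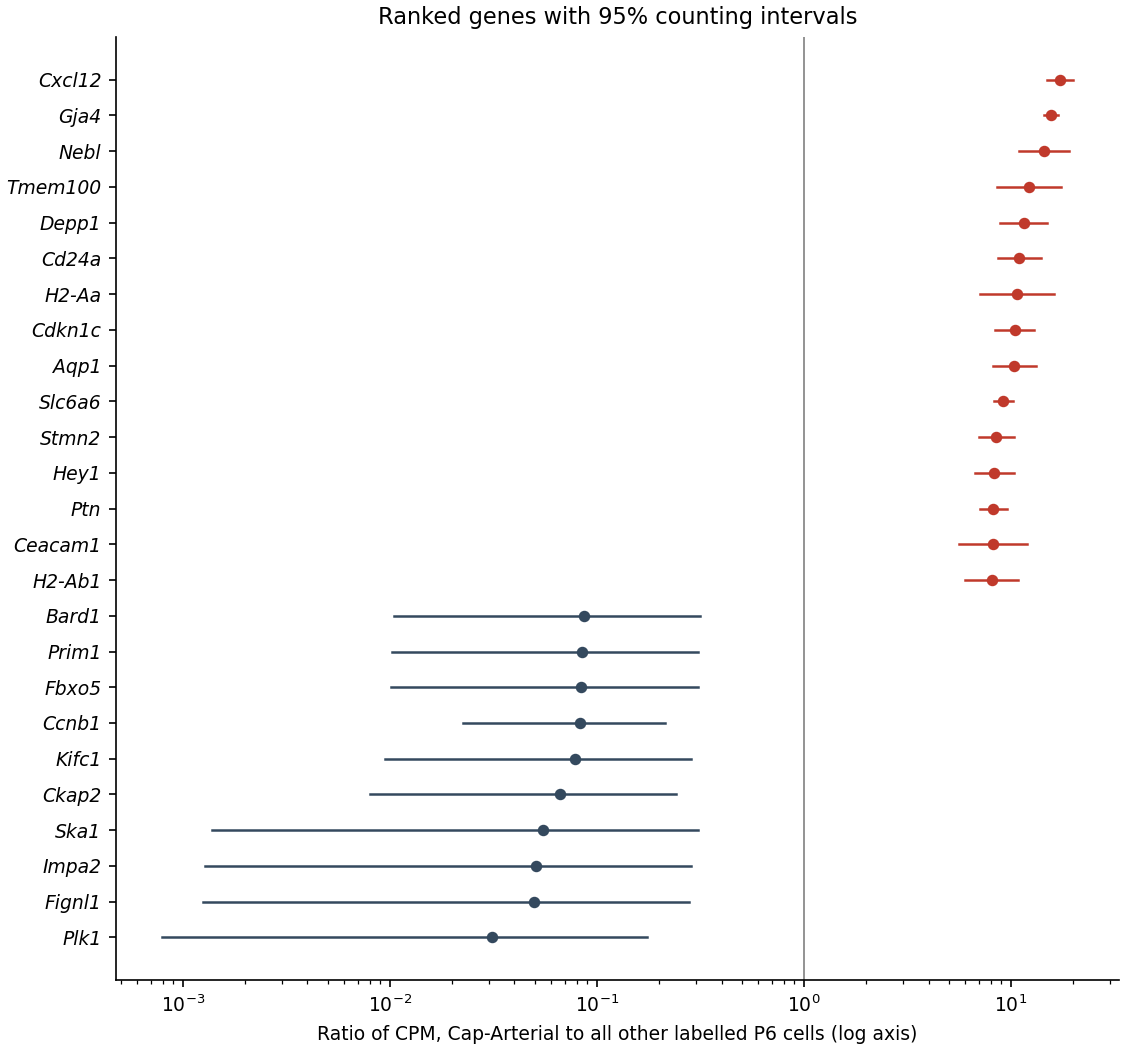
Ratios of CPM in Cap-Arterial to all other labelled P6 cells on a log axis, for the 15 genes with the highest and the 10 with the lowest ratio, with 95% counting intervals. The highest is Cxcl12 at 17.3, and the lowest, led by Plk1 at 0.0313, rest on 1 to 4 UMIs each.

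The lowest ratios belonged mainly to genes of dividing cells. Plk1, a mitotic kinase, had 1 UMI in Cap-Arterial cells, or 1.196 CPM against 38.3 CPM in the others (ratio 0.0313, 0.000789 to 0.175). Ccnb1, the mitotic cyclin B1, had 4 UMIs, or 4.78 against 57.7 CPM (0.0829, 0.0225 to 0.214). All 20 genes of a mitosis list were at least 2-fold lower (median ratio 0.164) and so were 19 of 20 genes of an S phase list (0.319), as were 5.65% of all tested genes. Compared without cells of the Proliferative and Primitive clusters, 9 of 20 mitosis genes (median 0.525) and 11 of 20 S phase genes (median 0.489) were lower, where 4.10% of all tested genes were, and Aurka and Bub1 came out above 1 (1.26 and 1.01). Against Cap-Venous cells 0 mitosis genes were lower and 2 were higher, and 9 S phase genes were lower. Of all tested genes 3.47% were lower and 4.07% higher there. Against Capillary cells 18 mitosis and 17 S phase genes were lower, as were 9.75% of all tested genes. Against Arterial cells 14 and 13 were lower, as were 8.24% of all tested genes. At 3000 UMIs per cell the genes of both lists had a median of 1 UMI in Cap-Arterial, 1.5 in Arterial, 2 in Cap-Venous, 3 in Capillary and 20 in Proliferative cells, and 36 of 133 Cap-Arterial cells had 0. Of 8 tested D cyclins and CDK inhibitors, Ccnd2 (ratio 2.59) and Cdkn1c, the p57 inhibitor (10.4), were higher and Ccnd1 was lower (0.324, 31.1 against 96.1 CPM). Cdkn1c was found with Gja4 in 38 of the 39 thinned Cap-Arterial cells that held it, while the ratios of Cdkn1a (0.872) and Cdkn1b (0.974) stayed near 1.

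Of the tested Notch pathway genes, Hey1 had the largest ratio. Of 3 tested ligands 0 passed 2-fold: Dll4 had a ratio of 1.35 (170 against 126 CPM), Jag2 of 1.60 and Jag1 of 1.05 (200 against 191 CPM). Jag1 was 1088 CPM in Arterial cells, which is the largest gap between Cap-Arterial and Arterial cells among these ligands (ratio 0.184, 0.149 to 0.226). The receptors Notch2 (1.39) and Notch4 (1.54) also stayed under 2-fold. Of the targets, Hey1 was higher, Hes1 had a ratio of 1.69 and was highest in Cap-Arterial cells of the 9 clusters (629 CPM), and Hey2, Heyl, Hes5 and Nrarp had 0 to 3 UMIs in the cluster. Among 8 tested modulators Lfng, a glycosyltransferase that tunes Notch receptors, was higher (2.21), but not by 2-fold under TMM factors.

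Ephrins and their receptors keep arterial and venous cells apart. Of 5 tested genes of this family 4 were higher: Efnb2, the arterial ligand (ratio 4.19, 83.7 against 19.99 CPM), Ephb4, its venous receptor (2.48, 122 against 49.3 CPM), Efna1 (2.23) and Epha4 (2.13), the last 2 not under TMM factors. The median of the 5 was 2.23, and 4.19% of all tested genes were at least 2-fold higher. Of the 6 genes that the study, on these same cells, used to annotate venous cells, Ephb4 was the only one past 2-fold in either direction among the 5 tested, while Nr2f2, the venous transcription factor, had a ratio of 0.544 and Slc38a5 of 0.610. With TMM or DESeq2 factors Nr2f2 was past 2-fold lower, as it was by the mean of per-cell CPM, and both Nr2f2 and Slc38a5 were when cells were thinned or had to pass the exclusion criteria. Apoe, a further venous annotation gene, had a ratio of 1.97 and was highest in Cap-Arterial cells, with Cap-Venous next (ratio 1.11). Of the 5 tested venous annotation genes 2 were highest in Cap-Arterial cells of the 9 clusters, where 9.18% of all tested genes were.

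Of 19 tested transcription factors of arterial and general endothelial identity, 5 were higher and 0 lower (median 1.58), where 4.19% and 5.65% of all tested genes were. The 5 were Sox17, Sox7 (2.94, 163 against 55.3 CPM), Sox18 (2.02), Tbx3 (7.98, 59.8 against 7.496 CPM) and Epas1 (2.003). Sox7, Sox18 and Tbx3 were highest in Cap-Arterial cells of all 9 clusters, although for Sox7 and Tbx3 the interval of the ratio to Arterial cells included 1. Sox17 alone of the SOXF group was lower in Cap-Arterial than in Arterial cells by about 2-fold, with a ratio of 0.508 (0.439 to 0.587). With TMM factors Sox7, Sox17 and Tbx3 remained past 2-fold. The pan-endothelial factors Erg (1.23), Fli1 (1.08) and Ets1 (1.07) showed little difference.

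Blood flow acts on endothelium through a small set of known response genes. Of 15 tested genes of flow response and vessel tone, 6 were higher and 1 lower (median 1.58), where 4.19% and 5.65% of all tested genes were. Klf2, the main flow-induced transcription factor, was 1512 CPM (1430 to 1598) against 460 CPM in the other cells (ratio 3.29, 3.08 to 3.50) and 2182 CPM in Arterial cells. Klf4 was 248 against 64.6 CPM (3.83, 3.25 to 4.501). Over single Cap-Arterial cells Klf2 ran from 0 through 13.2 to 58.5 UMIs per 10000, and 153 of 162 cells had a UMI. The adrenomedullin receptor gene Calcrl (2.80), the natriuretic peptide receptor Npr3 (2.69), endothelin Edn1 (2.17) and the channel Piezo1 (2.04) were higher, of which Edn1 and Piezo1 fell short under TMM factors. Adm, the ligand of Calcrl, was lower (0.199, 20.3 against 102 CPM).

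Of 4 tested BMP targets and co-receptors Id1 (3.37, 1197 against 356 CPM) and Id2 (2.79) were higher, and Id3 had a ratio of 1.89. Id1, an inhibitor of differentiation factors induced through ALK1, was higher in Cap-Arterial than in Arterial cells by 1.23-fold (1.05 to 1.44), in contrast to Nebl, Tmem100 and Depp1 above. The study's Results and Methods name partly different TGF signalling genes, and both sets were joined here. Among the 8 tested, Tgfb2 (3.71), Smad7, an inhibitory SMAD (3.87), and Acvrl1, which encodes ALK1 (2.17), were higher and 0 were lower. Smad7 is named in the study's Results but not among the genes its Methods give for the score. The median of the 8 was 1.62, and Acvrl1 fell short of 2-fold under TMM factors. Over all tested genes, 4.19% were higher and 5.65% lower. Of the 3 tested genes of the study's BMP list 0 passed 2-fold (median 0.798).

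Sprouting tip cells share some genes with arteries. Of 13 tested tip cell genes 2 were higher, Unc5b, a netrin receptor (6.55, 199 against 30.3 CPM), and Cxcr4, the receptor of Cxcl12 (2.03, not under TMM factors). In the other direction 5 were lower: Apln (0.0914, 20.3 against 223 CPM), Kcne3 (0.110), Angpt2 (0.167), Adm and Plaur (0.406). The split leaves the list with a median of 0.770, where 4.19% of all tested genes were higher and 5.65% lower. Thinned to equal depth, Apln was found in 6 of 133 Cap-Arterial cells (4.51%), 113 of 388 Cap-Venous cells (29.1%) and 31 of 91 Capillary cells (34.1%). Its receptor Aplnr was lower too, at 319 against 675 CPM (0.473), and 30.4 CPM in Arterial cells.

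Barrier transporters set Cap-Arterial cells apart from Arterial cells. Of 18 tested genes of the list, 11 were at least 2-fold higher in Cap-Arterial than in Arterial cells and 1 was lower (median ratio 3.13). Over all genes 776 were higher (9.68%) and 661 lower (8.24%) in this comparison, with a median ratio of 0.979. Because the 40 Arterial cells held only 197565 UMIs, the intervals of 601 of the 776 and 379 of the 661 genes included 1. Against all other labelled cells the same list had 3 higher genes (Slc6a6, Slco1a4 and Abcb1a), 0 lower and a median of 1.001, and Abcb1a fell short of 2-fold under TMM factors. Its median ratio was thus close to that of all tested genes, of which 4.19% were higher and 5.65% lower.

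Mfsd2a, which carries omega-3 lysolipids and restrains transcytosis, was 544 CPM (495 to 597) in Cap-Arterial, 596 in Cap-Venous, 826 in Capillary and 60.7 CPM in Arterial cells (Cap-Arterial to Arterial 8.96, 5.08 to 17.5). Slc7a5, the large neutral amino acid transporter, was 1223 CPM (1149 to 1300) against 1705, 2118 and 65.8 CPM in those clusters (18.6 to Arterial, 10.8 to 35.0). Its partner Slc3a2 was 1445 against 1966, 2334 and 400 CPM. These 3 genes stood lower in Cap-Arterial than in Capillary and far above Arterial cells. Slc2a1, the glucose transporter, followed another pattern, being highest in Cap-Arterial cells of the 9 clusters at 1706 CPM against 1396 in Capillary and 1291 CPM in Arterial cells. Slc38a5, a glutamine transporter and venous annotation gene, was 450 CPM against 1053 in Cap-Venous, 976 in Capillary and 45.6 CPM in Arterial cells. Tfrc, the transferrin receptor, was 84.9 CPM against 279 in Capillary cells and rested on 1 Arterial UMI. Against Capillary cells, 7 of the 18 carriers were lower and 2 higher (median 0.598), where 544 genes were higher (6.78%), 782 lower (9.75%) and the median was 0.969.

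The elastic matrix showed the reverse. Of 9 tested genes 6 were lower in Cap-Arterial than in Arterial cells and 0 higher (median 0.206). Mgp, matrix Gla protein, had 14 UMIs in the cluster, or 16.8 CPM (9.16 to 28.1) against 1741 CPM in Arterial cells (ratio 0.00962, 0.00520 to 0.0164). Eln, elastin, was 34.7 against 987 CPM (0.0351, 0.0229 to 0.0521), and Fbln5, a fibulin of elastic fibres, 261 against 2126 CPM (0.123). Compared with all other labelled cells, the list had 4 higher genes, Ltbp4 (6.37), Fbln2 (6.24), Mfap2 (4.20) and Fbln5 (2.69), and 3 lower, Bgn (0.485), Mgp (0.381) and Fbln1 (0.309). In that comparison 4.19% of all tested genes were higher and 5.65% lower. Mgp changed direction when the 40 Arterial cells were left out of the other cells (ratio 3.35), and 6 of 9 genes, Mgp and Eln included, were then higher, where 4.49% of all tested genes were. In Capillary cells Mgp was 1.91, Eln 5.74, Ltbp4 11.5 and Fbln5 36.4 CPM, so that for these 4 genes the Cap-Arterial level lay above Capillary and below Arterial cells. Mgp had a UMI in only 1 of 149 Capillary and 9 of 162 Cap-Arterial cells, and Eln in 3 and 19. Their Capillary levels were no higher than the 5.74 CPM that 0 UMIs allow there.

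**Figure D4:**
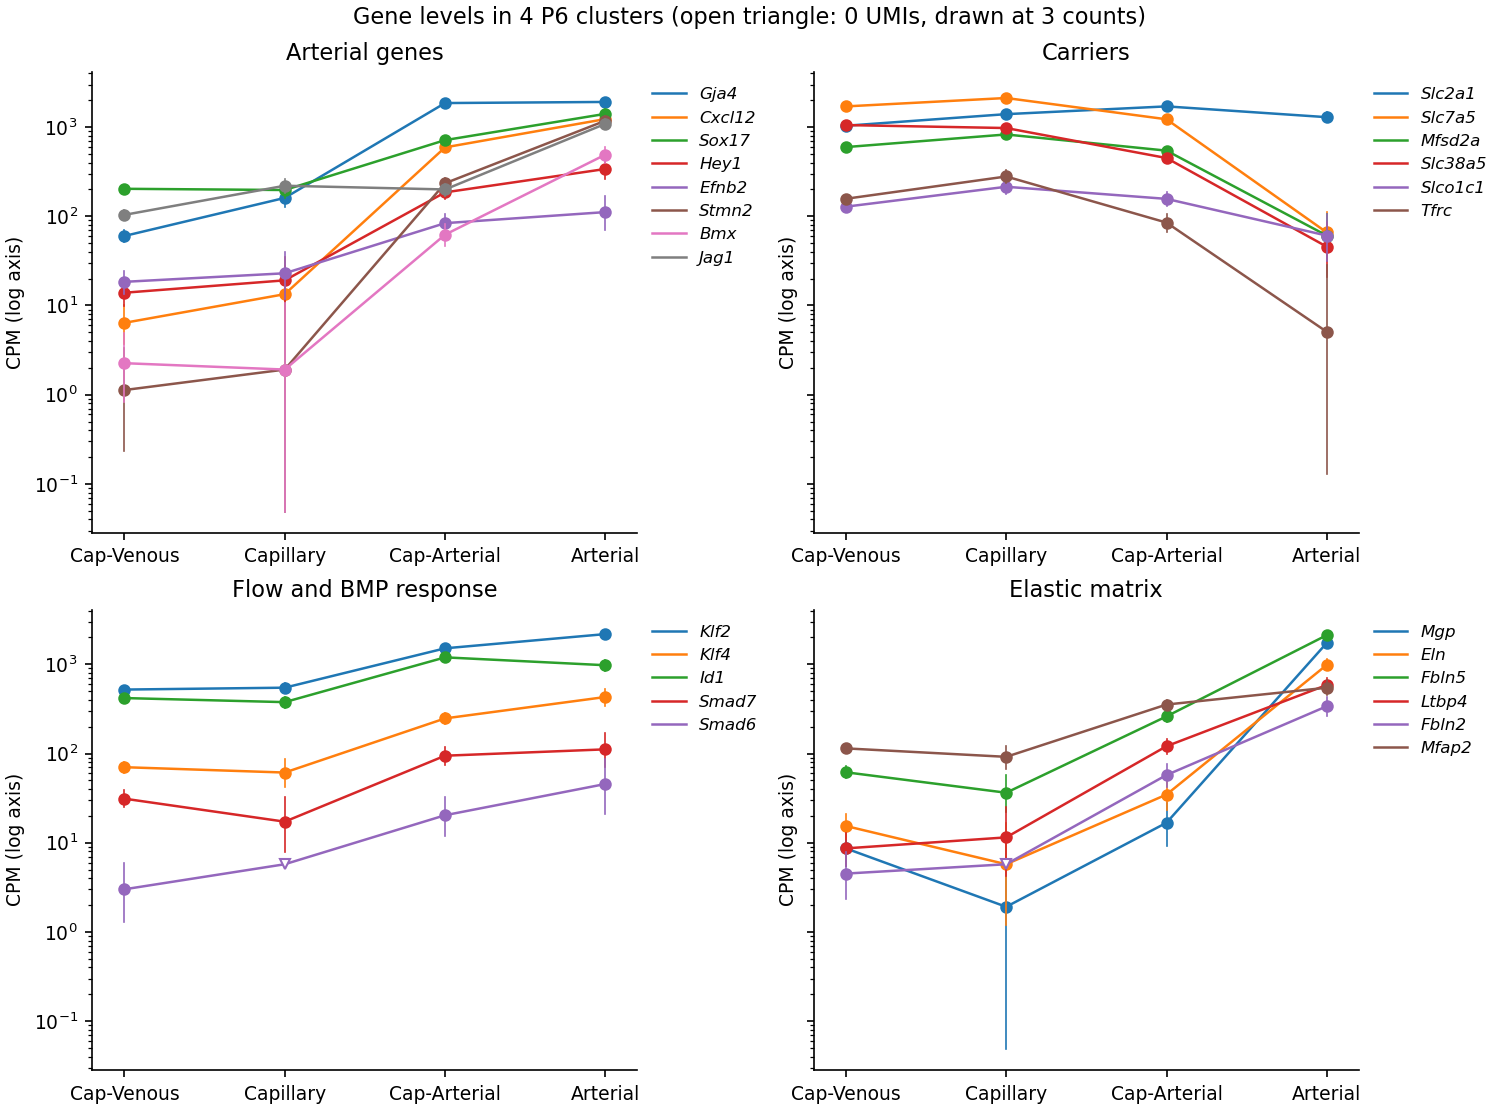
Levels in CPM on a log axis in Cap-Venous, Capillary, Cap-Arterial and Arterial P6 cells for arterial genes, carriers, flow and BMP response genes and elastic matrix genes, with exact Poisson 95% intervals as vertical lines. Sloping lines only join the values of a gene, open triangles mark 0 UMIs drawn at 3 counts, and from Cap-Arterial to Arterial cells Gja4 goes from 1859 to 1913, Mfsd2a from 544 to 60.7, Id1 from 1197 to 977 and Mgp from 16.8 to 1741 CPM.

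The basement membrane genes gave a smaller contrast. Of 13 tested, Col18a1 (2.70, 840 against 311 CPM) and Lamb2 (3.26) were higher than in the other labelled cells and 0 were lower (median 1.09). Among all tested genes 4.19% were higher and 5.65% lower there. Against Capillary cells 6 were lower, among them Lamb1 at 103 against 383 CPM, where 9.75% of all tested genes were lower. For 10 tested junction genes Jam2 was higher (2.64) and Cldn5, the main claudin of the barrier, had a ratio of 1.17 (6202 against 5302 CPM). Of 12 Wnt and Norrin pathway genes, which drive barrier formation, 0 passed 2-fold in either direction (median 1.17). The 5 VEGF receptors likewise stayed within 2-fold, from 0.690 for Flt4 to 1.82 for Flt1.

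To place the cluster between capillary and artery, genes were used whose Arterial level differed from that of pooled Cap-Venous and Capillary cells by an interval past 2-fold, a measure chosen after the data were seen. For the 205 genes higher in Arterial cells the Cap-Arterial level lay at a median of 61.0% of the distance on the log scale (quartiles 44.0 and 73.7%) and 38.1% on the linear scale. For the 75 genes lower in Arterial cells it lay at 27.2% on the log scale (18.2 and 47.8%) and 52.9% on the linear scale, so that which group was nearer to Arterial depends on the scale. For 17 of these 75 genes Arterial cells had 0 UMIs and the place is set by 3 counts, and the median of the other 58 genes was 25.4% on the log and 45.4% on the linear scale. Within both groups the genes were widely spread. On the log scale Mgp stood at 14.7%, Jag1 at 22.3%, Bmx, a tyrosine kinase of arteries, at 61.8%, Cxcl12 at 85.7%, Unc5b at 89.2%, Gja4 at 99.1%, Glul at 101% and Id1 at 124%. Gja4, Glul and Id1 kept a place at or near the Arterial level on the linear scale too (97.0, 102 and 139%), whereas Cxcl12 moved to 47.8% and Bmx to 12.3%. Among the genes lower in Arterial cells, Mfsd2a stood at 6.51% and Slc7a5 at 11.3% of the log distance, near the pooled level. Apln stood at 88.1%, near Arterial cells. Cap-Venous cells held 2661117 and Capillary cells 522756 of the pooled UMIs, so the pooled level is mainly that of Cap-Venous cells.

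The arterial and barrier genes occurred in the same cells. After thinning to 3000 UMIs, Gja4 and Mfsd2a were both found in 65 of 133 Cap-Arterial cells (48.9%, 40.1 to 57.7%), 4 of 32 Arterial cells (12.5%), 32 of 388 Cap-Venous cells (8.25%) and 15 of 91 Capillary cells (16.5%). Gja4 and Slc7a5 were both found in 87 of the 133 Cap-Arterial cells (65.4%). Whether some of these barcodes held more than 1 cell was not tested beyond the Xist and Y-linked count above. Within the cluster Mfsd2a was found in 59.6% of cells with and 62.5% of cells without Gja4, where few thinned cells lacked Gja4. Stmn2, which marked Arterial cells more sharply, was found in 30 thinned Cap-Arterial cells, of which 36.7% also had Mfsd2a, compared with 67.0% of the others. Per thinned cell the 4 markers had a median of 8 UMIs in Cap-Arterial, 13.5 in Arterial, 0 in Cap-Venous and 1 in Capillary cells. The 20 carriers had 23, 11, 26 and 32 UMIs and the elastic matrix genes 3, 10.5, 2 and 2 UMIs in the same order. The distribution over Cap-Arterial cells was wide for the markers (0 to 56 UMIs), with 10 cells at 0.

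The genes with the highest ratio to Arterial cells were Ttyh2, Slco2b1, Slc7a5, Tfrc, Meox1, Snx21, Serpine2 and Aplnr, of which all but Slc7a5 and Aplnr rested on 1 Arterial UMI. Aplnr, the apelin receptor, was 319 against 30.4 CPM (10.5, 4.77 to 28.9). Among the lowest, after Mgp and Eln, Dkk2, a secreted Wnt modulator, was 32.3 CPM against 369 CPM in Arterial cells (0.0874, 0.0540 to 0.138), yet above the 9.31 CPM of all other labelled cells. Against Capillary cells the highest ratios with a UMI there were those of Stmn2, Cd74, Cxcl12, Bmx, Cd24a, Depp1 and Cdkn1c, while Nebl and Tmem100 had 0 UMIs in Capillary cells, which allows up to 5.74 CPM.

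Compared with Cap-Venous cells, 326 genes were higher in Cap-Arterial cells (4.07%) and 278 lower (3.47%), with a median ratio of 1.03. The largest ratios were those of Stmn2, Cxcl12, Nebl, Tmem100, Gja4, Dkk2, Bmx and Depp1, from 208 (3 UMIs of Stmn2 in Cap-Venous cells) to 20.9. The lowest, from Impa2 at 0.0513 to Odc1 at 0.180, included Cdh11, Apln and Tgfbi, of which Tgfbi, a matrix protein, was 20.3 CPM in Cap-Arterial cells and 131 CPM in all other labelled cells.

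Cap-Arterial cells were the highest of the 9 clusters for 736 genes (9.18%) and the lowest for 530 (6.61%). The genes with the largest ratio to the next cluster were Serpine2, Tcim, Rbp7, Lrrc49, B4galt4, Zfp697, Sgk1, Serpinb9, Ccdc91 and Cobll1. Serpine2, a protease inhibitor also called protease nexin 1, was 61.0 CPM against 23.0 in Capillary cells, the next cluster (2.66, 1.40 to 5.48). Tcim was 109 CPM against 45.6 in Arterial cells (2.39, 1.21 to 5.39), and Sgk1, a kinase of cell volume and hormone response, was 291 CPM with Venous as the next cluster (1.97, 1.41 to 2.80). To all other labelled cells Serpine2 had a ratio of 3.63, Tcim of 7.92 and Sgk1 of 2.46. For Rbp7 (0.854 to 9.10) and B4galt4 (0.964 to 4.84) the interval of the ratio to Arterial cells included 1.

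Immediate early genes respond within minutes to stimulation and to the handling of tissue. Of 13 tested 5 were at least 2-fold higher and 0 lower (median 1.91), where 4.19% and 5.65% of all tested genes were. Fos had a ratio of 2.59 (158 against 61.0 CPM) and Jun of 2.46 (304 against 124 CPM). With TMM or DESeq2 factors 2 of the 13, Fos and Jun, were past 2-fold, and Fos turned to 0.321 among cells with a Y-linked UMI and no Xist. Arterial cells had higher levels still, 425 CPM of Fos and 587 CPM of Jun. Whether the dissociation contributed was not tested.

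Interferon-induced genes act in antiviral defence. Of 8 tested, Ifit1 (3.23), Isg15 (2.38), Irf7 (2.42) and Ifit3 (2.19) were at least 2-fold higher and 0 lower (median 2.01), Ifit3 not under TMM factors. Over all tested genes, 4.19% were higher and 5.65% lower. Without the 25 Cap-Arterial cells that held UMIs of at least 2 MHC class II genes, 0 of 8 were higher (median 1.27), where 3.99% of all tested genes were. This comparison was chosen after the data were seen. The comparison cells kept their own such cells, 14 of 42 Venous cells among them, so the groups were not filtered alike. The interferon list summed to 3171 CPM in Venous and 907 CPM in all Cap-Arterial cells.

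Glul, which encodes glutamine synthetase, was 1591 CPM in Cap-Arterial, 191 in Capillary and 246 in Cap-Venous cells (ratio to all others 7.39). It had a UMI in 150 of 162 cells, with a median of 13.0 UMIs per 10000, and its level equalled that of Arterial cells within counting error (1564 CPM, ratio 1.02, 0.898 to 1.15). Glul is also abundant in Mueller glia. The other genes of the glial list summed to 11.96 CPM in Cap-Arterial and 9.77 CPM in the other cells, and the part of glial RNA in the Glul level was not tested.

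At P15, 68 of the 438 labelled cells were Cap-Arterial, with a median of 3919 UMIs. The labels of P15 cells were read from a shortened copy that held the first of them, and the ages are 1 library each, so age and library cannot be told apart and no ratio between ages is given. Against the other labelled P15 cells 80 of 3695 tested genes were higher (2.17%) and 113 lower (3.06%). Of the 3679 genes tested at both ages, 171 were higher at P6 and 76 at P15, and 51 at both (29.8% of the P6 and 67.1% of the P15 genes), while 65 and 111 were lower and 27 at both (41.5 and 24.3%).

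The markers kept high ratios at P15, 10.4 for Cxcl12, 10.4 for Gja4, 3.63 for Hey1 and 2.38 for Sox17. Slc6a6 had a ratio of 3.89, Unc5b of 5.23 and Glul of 3.59, and Apln of 0.117, past 2-fold in the same direction as at P6. Sox7 had 0.975 at P15 beside 2.94 at P6, Calcrl 0.788 beside 2.80 and Tcf15 1.14 beside 3.64. Slc38a5 stood at 0.267 (218 against 816 CPM) beside 0.610 at P6, and Mfsd2a at 1.84 (813 against 441 CPM) beside 1.15. Among the named genes the intervals of 5 lay on opposite sides of 1 at the 2 ages, Apoe, Bst2, Cav1, Cldn5 and Slc3a2, and the difference between ages was not tested. The other labelled cells also differed in make-up between the ages, and the part of this in the ratios was not tested.

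**Figure D5:**
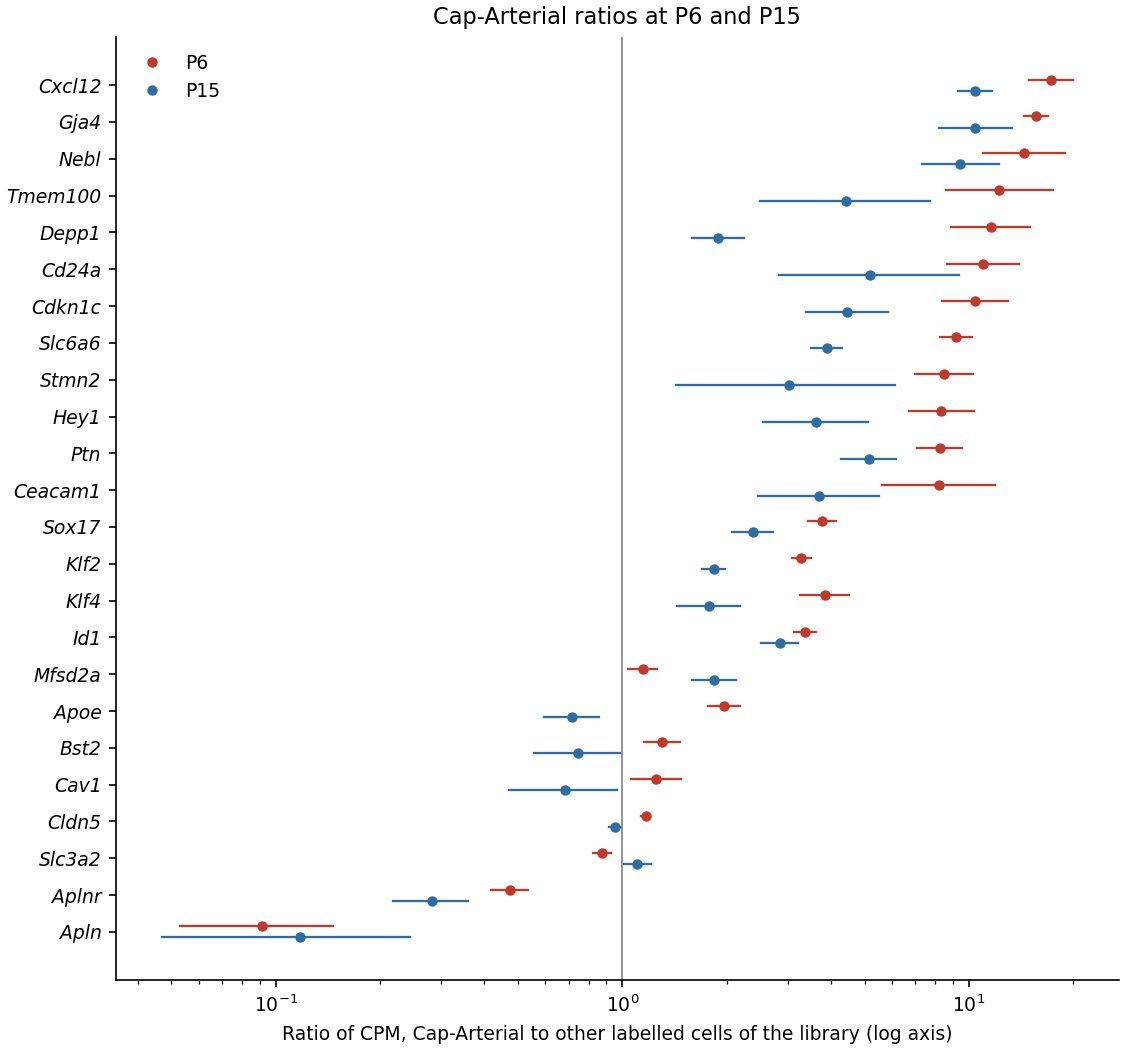
Ratio of CPM in Cap-Arterial to all other labelled cells of the same library, on a log axis with a line at 1, for the named genes shown at P6 (red) and P15 (blue), with 95% counting intervals. Among the genes drawn, Cxcl12 and Gja4 have the highest and Apln the lowest ratio at both ages, and Apoe, Bst2, Cav1, Cldn5 and Slc3a2 lie on opposite sides of 1.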

How the data were processed

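Sorted CD31+ CD45- retinal cells of wild-type mice gave 1 droplet library at P6 and 1 at P15. The authors deposited counts of UMIs per gene and barcode without normalization, and per the labels Seurat 3.0 and the build mm10 were used, while the aligner and counter are not given in the sources used here. Rows without a gene symbol held 0.0145% of P6 UMIs and stayed out of totals of genes, and identifiers that share a symbol were summed. Cluster labels came from the study's source data and matched 1560 P6 barcodes and the first 438 labelled P15 barcodes of a shortened copy. Members and gene lists were chosen with earlier results of these data known.

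UMIs were summed per cluster and divided by the cluster's total. Genes needed 100 UMIs over the labelled P6 cells, and the same minimum was applied to the labelled P15 cells. The named genes were those of the lists, the 15 highest and 10 lowest ratios against other cells, the 8 highest and 8 lowest against each of Arterial, Cap-Venous and Capillary cells, the 10 highest against the next cluster and those on opposite sides of 1 at P6 and P15, the ranked ones each found in at least 10% of cells of the higher side. Mitochondrial, ribosomal and unnamed gene models were left out of the ranks. The study's criteria were 200 to 3500 genes, at most 5% of UMIs from mitochondria and absence of Hbb-bt, Neurod1 and Cd63, and 154 of the 162 cells pass them. No doublet caller was run, and barcodes that mix Xist with Y-linked genes were counted instead.

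Depth limits precision most for Arterial cells, where 0 UMIs allow up to 15.2 CPM. The ratio step was run on simulated Poisson counts without spread between cells. It therefore does not test the intervals of genes whose UMIs lie in few cells. Gene positions are from GENCODE M21 on GRCm38, matched by symbol. Alternatives covered minimum counts, scaling by edgeR 4.0.16 TMM and DESeq2 1.42.0 size factors in R 4.3.3, per-cell means, thinning, the cells included and the comparison cells. Other steps used Python 3.11.15, numpy 2.4.6, scipy 1.17.1 and pandas 2.3.3.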

Additional observations from a re-analysis of the deposited data

Results flagged for a closer look

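For 5 named genes the ratio of Cap-Arterial to other labelled cells lay on opposite sides of 1 at the 2 ages, with counting intervals that exclude 1. Apoe had a ratio of 1.97 at P6 and 0.716 at P15, Bst2 1.30 and 0.747, Cav1 1.25 and 0.685, Cldn5 1.17 and 0.9503, and Slc3a2 0.876 and 1.11. The difference between the ages was not tested, and age, library and the mix of sexes cannot be told apart. None of these ratios reached 2-fold.

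Among the 424 P6 barcodes without a label, which the comparisons did not use, 34 had a UMI of at least 3 of the 4 markers (8.02%, 5.62 to 11.03%), where all 1560 labelled cells had 193 (12.4%, 10.8 to 14.1%) and the 1398 of them outside Cap-Arterial had 78 (5.58%). The median depth of the unlabelled barcodes was 7552 UMIs, against 5364 in all labelled cells.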

How the results depend on the processing

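The 336 higher and 453 lower genes became 556 and 696 with a minimum of 50 UMIs, 138 and 193 with a minimum of 300, and 2572 and 921 without a minimum. TMM factors and DESeq2 size factors each gave 207 higher genes. Cells with Xist and no Y-linked UMI gave 772 higher and 910 lower genes, and cells with a Y-linked UMI and no Xist 661 and 828, where fewer UMIs per group were summed. The share of Cap-Arterial cells moved from 10.4% to 8.83% among cells with a Y-linked UMI and no Xist. In the other alternatives the counts stayed within 1.5 times. Among these, leaving out Cap-Arterial cells with 2 or more MHC class II genes gave 320 and 515. Leaving out Cap-Arterial cells with 0 of the 4 markers gave 324 and 468. Both were chosen after seeing the data and left the comparison cells whole.

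Of 147 named genes past 2-fold, 132 kept it with TMM factors and 112 when compared without Proliferative and Primitive cells. Ratios that changed direction were, among cells with Xist only, Ier3 (0.858) and Mgp (1.12), and among cells with Y-linked UMIs only, Btg2 (0.667), Fos (0.321), Irf7 (0.781), Mcm2 (1.04) and Ung (1.15). Without Proliferative and Primitive cells Aurka had 1.26 and Bub1 1.01, and without Arterial cells Mgp had 3.35. Without the Cap-Arterial cells with 2 or more MHC class II genes, Cd74 had 0.377, H2-Aa 0.761, H2-Ab1 0.587 and Ifit3 0.957. These cells held most of the cluster's UMIs of these genes, and the comparison cells kept their own such cells. Because the cells were picked by genes that include Cd74, H2-Aa and H2-Ab1, lower ratios of these genes were set in advance. For the genes that changed direction in the other settings the cause was not tested. No paired analysis was possible because each age is 1 library. Genes with under 4 UMIs in Cap-Arterial cells have wide intervals, and the 40 Arterial cells limit each comparison with them.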

Other observations

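MHC class II genes, which present antigen and are best known from immune cells, had UMIs in a minority of Cap-Arterial cells. At least 2 of Cd74, H2-Aa, H2-Ab1 and H2-Eb1 were found in 25 of 162 cells (15.4%, 10.2 to 21.9%), and these held 450 of the 470 UMIs of the 4 genes. The endothelial cadherin Cdh5 was found in all 25 cells and Gja4 in 18, and 1 of the 25 had a UMI of any of the 8 leukocyte genes analysed, which do not include Ptprc. Such cells made up 14 of 42 Venous cells (33.3%), 7 of 40 Arterial cells (17.5%), 13 of 414 Cap-Venous cells (3.14%) and 77 of all 1560 labelled cells (4.94%).

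Interferon genes were higher in the same 25 cells. The interferon list had 363 UMIs in them (2568 CPM) and 395 in the other 137 (569 CPM) (ratio 4.52, 3.90 to 5.22). Isg15, an interferon-induced ubiquitin-like protein, had a ratio of 6.34 (4.65 to 8.66), and the MHC class I genes H2-K1, B2m and H2-D1 had ratios of 5.70, 4.08 and 3.01. The 4 markers and the barrier carriers were lower in the 25 cells, with ratios of 0.729 (0.651 to 0.815) and 0.670 (0.622 to 0.720), while Cdh5 did not differ beyond counting error (0.997). The pattern also moved with Xist: of the 25 cells 7 had Xist and no Y-linked UMI and 0 the reverse, compared with 19 and 34 of the other 137. Over all labelled cells, 28 of the 77 had Xist only and 2 a Y-linked UMI only, compared with 239 and 383 of the other 1483. The part that pups of either sex or a group of animals had in this pattern was not tested, and the labels do not tie cells to animals.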
